A study of Mus musculus with 18 samples.

Results

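The collagen genes code for the chains of collagen, the main structural protein family of the extracellular matrix. Every gene whose mouse symbol reads Col, a number, a and a number was taken, with symbols looked up by gene ID. This gave 44 of the 37620 gene IDs counted in each library, for 27 collagen types, and 32897 of all IDs had a symbol. RNA-seq of polyadenylated RNA was done on blood stem and progenitor cells (BSPC, the lineage-negative, cKit+ cells of bone marrow), on intestine and on testes of C57B6/129 hybrid mice. In each tissue 2 libraries carried the genotype label K36M, 2 the label K9M and 2 the label wildtype (WT), which makes 18 libraries in 9 groups. K36M and K9M are inducible mutants of histone H3 with a methionine in place of lysine 36 or lysine 9, a substitution known to block the methyltransferases of that residue. The treatment text is the same for every library, WT included, and states induction with doxycycline at 2 mg/ml in the water of mice aged 6 to 8 weeks. The labels name 6 mice that gave both intestine and testes and 6 others that gave BSPC. Neither the promoter nor the genomic site of the transgene is in the labels, nor whether WT mice carried one, nor the length of induction. Inducible transgenes of mice are often placed beside Col1a1, so the structure of that locus in each genotype is a limit on the Col1a1 values.

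Collagen chains assemble in the endoplasmic reticulum into a triple helix after hydroxylation of their prolines and lysines, and are then secreted, trimmed and cross-linked. Fibrillar collagens (types I, II, III, V, XI, XXIV and XXVII) form fibrils, type IV forms the sheet of basement membranes, type VI forms beaded filaments, and FACIT collagens sit on fibrils. Type VII anchors epithelium to the stroma beneath it, types XIII, XVII, XXIII and XXV span the cell membrane, and types XV and XVIII (multiplexins) lie in basement membranes. In intestine and testis, collagen is known to be made largely by fibroblasts, muscle and peritubular cells, and basement membrane collagen also by the epithelium or Sertoli cells. By class the 44 genes were 11 fibrillar, 6 basement membrane, 8 beaded filament and related, 9 FACIT, 3 short chain, 1 anchoring fibril, 4 transmembrane and 2 multiplexin genes.

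Counts in genes were 13396303 to 21417915 per library. Blood genes such as Kit and Mpo were high in all BSPC libraries, epithelial genes such as Vil1 and Epcam in all intestine libraries, and spermatid genes such as Prm1 in all testes libraries. The intestine library of mouse WT.1476 stood apart: 8 testis germ cell markers summed to 195.5 CPM (read counts scaled to the library total) there, against 4.55 to 24.6 CPM in the other intestine libraries. Xist was at 2108 to 3435 CPM in BSPC and at 0.582 to 3.28 CPM in intestine and testes, while 4 Y-linked genes summed to 0 to 0.0485 CPM in BSPC and to 76.2 to 250.4 CPM in the other tissues, so sex and tissue cannot be told apart between BSPC and the rest. Values below are CPM scaled by TMM within each tissue, and a difference is a log2 fold change ± SE from edgeR's quasi-likelihood test, adjusted by Benjamini-Hochberg over all genes tested, with a threshold of 0.05. The 2 libraries of a group come from different mice, so n is 2 a group throughout. In bulk RNA, fewer cells of a type and less RNA per cell cannot be told apart.

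Of the 44 genes, 10 had a count in every library. The heatmap of all collagen genes shows the contrast between the tissues, with most collagen genes at higher levels in testes than in BSPC or intestine.

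**Figure D1:**
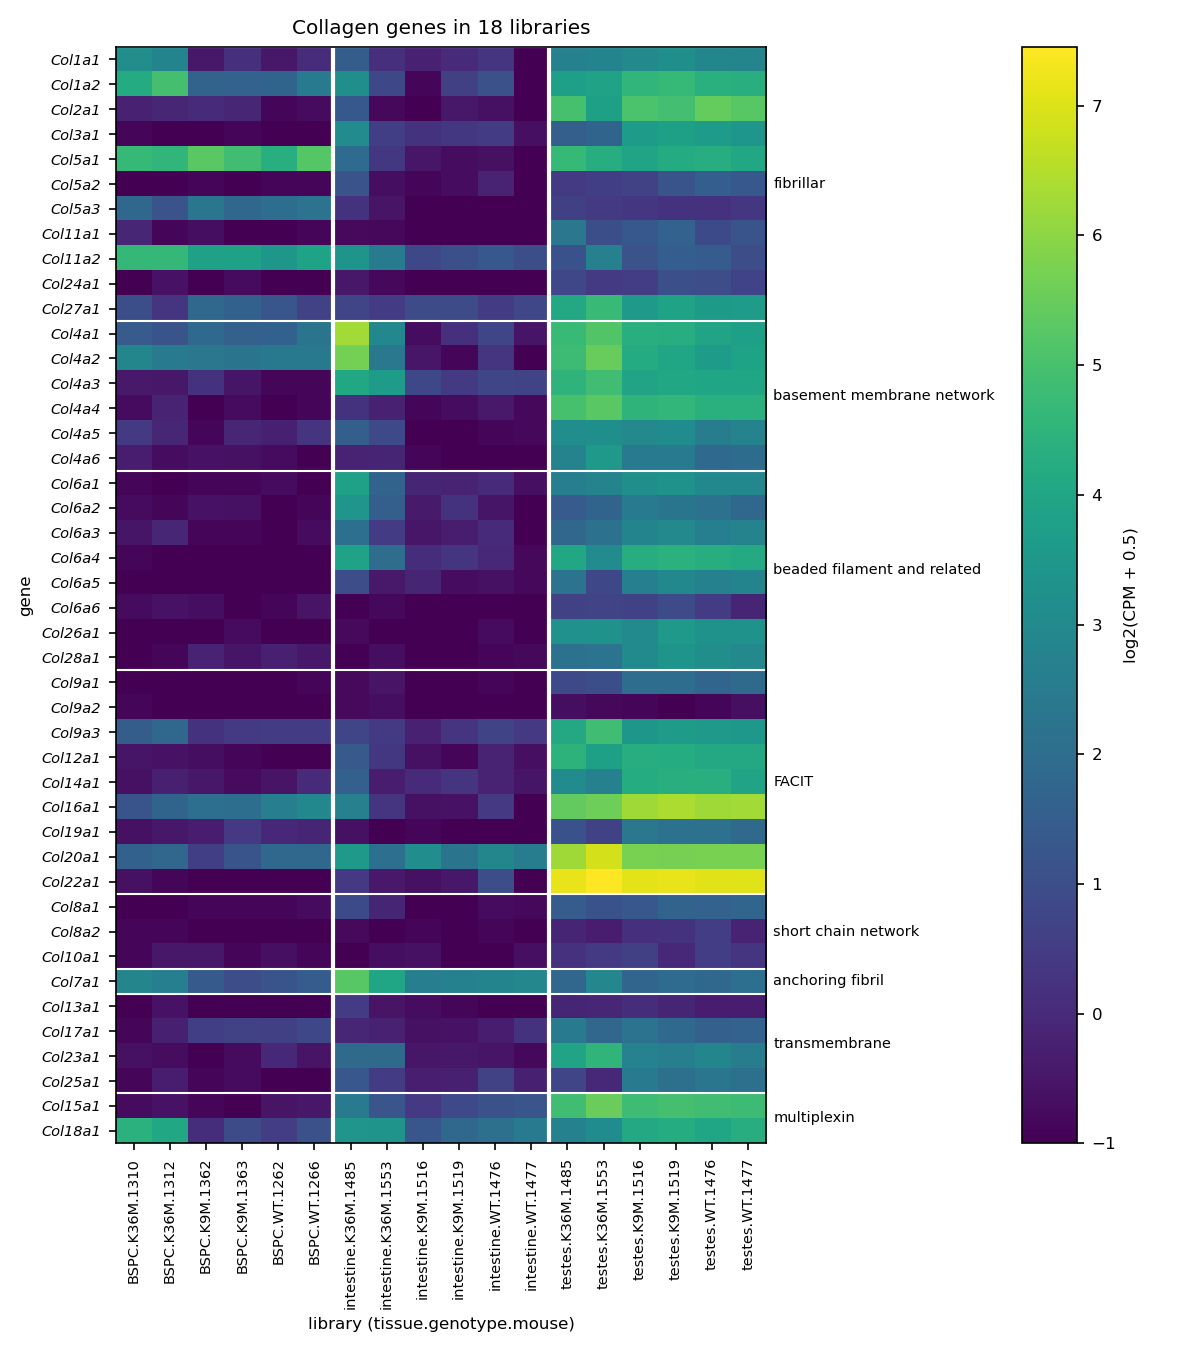
Level of the 44 collagen genes (rows, grouped by class) in the 18 libraries (columns, tissue, genotype and mouse), as log2 of CPM plus 0.5 with TMM scaling within each tissue. Testes libraries are brighter than the others for most genes, and in intestine the K36M library of mouse 1485 is the brightest.

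Type IV collagen is the class in which every chain tested was called higher in K36M than in WT in both intestine and testes. None was called in BSPC. In testes most of the type IV calls were lost when either WT mouse was left out, and in a fit of all 18 libraries. In intestine Col4a4 and Col4a6 were too low to test. Col4a2 and Col4a5 passed the filter on low counts there through the K36M libraries alone, which favours a higher value. The type IV genes are known to lie head to head in pairs: Col4a1 with Col4a2, Col4a3 with Col4a4, and Col4a5 with Col4a6. The RefSeq promoter windows (250 bases before to 50 after the start, GRCm38.p6, each on its own strand) are shown because the pairs are described together. Windows were matched for 35 of the 44 genes, and the 5 type IV windows in the table are shown. Capitals mark matches, on either strand, to the CCAAT box, to the TATA box in the form TATAAA, and to the GC box in the form GGGCGG; these motifs do not overlap one another here.
Col4a1 promoter, chr8:11312777-11313076, minus strand: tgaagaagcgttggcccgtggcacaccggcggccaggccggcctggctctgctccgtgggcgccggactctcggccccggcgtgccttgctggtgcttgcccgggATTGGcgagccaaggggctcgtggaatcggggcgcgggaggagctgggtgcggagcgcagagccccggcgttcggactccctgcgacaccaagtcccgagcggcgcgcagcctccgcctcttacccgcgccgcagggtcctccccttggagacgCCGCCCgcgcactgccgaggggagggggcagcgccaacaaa
Col4a2 promoter, chr8:11312555-11312854, plus strand: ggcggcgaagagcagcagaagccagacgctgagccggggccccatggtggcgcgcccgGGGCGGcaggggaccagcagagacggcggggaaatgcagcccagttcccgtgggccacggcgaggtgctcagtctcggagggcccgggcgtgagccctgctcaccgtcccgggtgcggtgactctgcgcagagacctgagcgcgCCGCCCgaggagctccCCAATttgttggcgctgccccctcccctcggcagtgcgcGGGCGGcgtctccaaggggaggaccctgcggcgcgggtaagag
Col4a4 promoter, chr1:82586800-82587099, minus strand: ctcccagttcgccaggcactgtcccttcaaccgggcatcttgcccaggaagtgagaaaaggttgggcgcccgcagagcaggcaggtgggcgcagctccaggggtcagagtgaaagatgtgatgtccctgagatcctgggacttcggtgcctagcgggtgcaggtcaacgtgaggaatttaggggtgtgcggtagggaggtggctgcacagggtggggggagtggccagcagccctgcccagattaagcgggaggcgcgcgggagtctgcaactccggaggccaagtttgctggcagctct
Col4a5 promoter, chrX:141475169-141475468, plus strand: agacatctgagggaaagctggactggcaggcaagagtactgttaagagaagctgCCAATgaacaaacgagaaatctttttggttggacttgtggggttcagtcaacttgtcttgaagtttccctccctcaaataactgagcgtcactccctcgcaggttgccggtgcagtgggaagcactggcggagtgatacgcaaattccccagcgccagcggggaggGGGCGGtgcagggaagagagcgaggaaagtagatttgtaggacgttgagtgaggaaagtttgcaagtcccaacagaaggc
Col4a6 promoter, chrX:141474027-141474326, minus strand: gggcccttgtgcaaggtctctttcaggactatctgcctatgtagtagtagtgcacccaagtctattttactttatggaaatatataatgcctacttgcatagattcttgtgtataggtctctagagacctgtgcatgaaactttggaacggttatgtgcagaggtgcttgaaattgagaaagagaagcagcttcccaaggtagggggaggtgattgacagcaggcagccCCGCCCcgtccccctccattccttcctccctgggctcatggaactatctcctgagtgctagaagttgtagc
The windows of Col4a1 and Col4a2 share 78 bases, while the start sites of Col4a6 and Col4a5 lie 1343 bases apart and their windows share 0 bases. TATAAA was found in none of the 5 windows. Col4a1 and Col4a5 each held 1 CCAAT and 1 GC box, Col4a2 held 1 CCAAT and 3 GC boxes, Col4a6 held 1 GC box, and Col4a4 held none of the 3 motifs. Of the 38 windows that the table holds for these 35 genes, 34.2% held CCAAT, 13.2% TATAAA and 60.5% the GC box, against 37.4%, 13.6% and 35.7% of all 32851 promoter windows. A match is a stretch of letters and not a shown binding site.

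The tissue comparison asked at what level each collagen gene was found in the WT libraries of each tissue. On the scale of CPM per kb of exon, with TMM over all 18 libraries, the median collagen gene was at 0.0328 in intestine, 0.941 in testes and 0.0088 in BSPC. No collagen gene was without a count in WT testes, while 8 were without one in WT intestine and 11 in WT BSPC. In testes the highest was Col22a1, a FACIT collagen known from tissue junctions, at 14.2 and 13.8 CPM per kb. It was followed by the FACIT genes Col16a1 at 10.7 and 10.9 CPM per kb and Col20a1 at 9.97 and 9.98 CPM per kb, and by Col2a1, the cartilage collagen, at 4.57 and 3.93 CPM per kb. The first 3 kept their order in both testes libraries, and the values of Col16a1 and Col20a1 did not overlap. The fourth place was not settled, since Col15a1, a multiplexin, was at 4.33 and 4.12 CPM per kb, within the range of Col2a1.

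In intestine the highest collagen gene per kb was Col20a1, at 2.06 and 1.36 CPM per kb. Next were Col7a1, the anchoring fibril collagen, at 0.977 and 0.896 CPM per kb, and Col18a1, the multiplexin whose end is released as endostatin, at 0.850 and 0.981 CPM per kb. Col15a1, the other multiplexin, followed at 0.405 and 0.381 CPM per kb, inside the ranges of Col9a3 (0.471 and 0.279) and Col11a2 (0.451 and 0.299), so these 3 had no set order. Col7a1 and Col18a1 did not differ beyond the spread of their libraries. In BSPC the highest was Col5a1, a fibril-regulating chain, at 1.74 and 3.25 CPM per kb, then Col11a2 at 1.17 and 1.58, Col16a1 at 0.627 and 0.804, and Col4a2 at 0.548 and 0.557 CPM per kb. The partner of Col5a1, Col5a2, was at 0.0037 and 0.0036 CPM per kb in BSPC, and Col5a3 at 0.407 and 0.465. Col3a1, which usually accompanies type I collagen in stroma, had no count in either BSPC library of WT mice.

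In WT testes against WT BSPC, 40 of 43 collagen genes tested were higher, against 48.6% of all genes, and 2 were lower, against 33.6%. The lower ones were Col11a2 (log2 -2.41 ± 0.48, adjusted p = 0.00036) and Col5a3 (-2.11 ± 0.46, adjusted p = 0.0011). Col5a1 was the single gene not called, at -0.36 with an adjusted p of 0.435. The median over the 43 genes was 5.49, against 0.67 over all genes. Col22a1 had 5066 counts in WT testes and 0 in WT BSPC, at least 2431-fold higher against a floor of 3 counts over the group.

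In WT intestine against WT testes, 1 of 43 was higher, against 35.4% of all genes, and 41 were lower, against 47.6%. The higher gene was Col7a1 (log2 1.71 ± 0.47, adjusted p = 0.0057). Col11a2 was not called (0.69, adjusted p = 0.292). The median of the 43 was -4.27, against -0.64 over all genes. With the mouse as a block, 41 genes were called. The WT intestine libraries were rich in epithelial markers, whose list summed to 17120 and 18520 CPM. Dcn was at 1.55 and 0.203 CPM there, Pdgfra at 0.582 and 0.0678 CPM and Acta2 at 1.16 and 0.203 CPM. The stromal marker Prrx1 was at 48.3 and 48.4 CPM. These levels describe the cells in the libraries, and the part of the stromal share in the tissue difference was not tested.

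In WT intestine against WT BSPC, 14 of 43 were higher, against 34.8% of all genes, and 5 were lower, against 29.4%. With library size alone as the scaling, 9 were higher and 9 lower, with a median of 0.16 over the 43 genes and -0.45 over all genes, against 0.99 and 0.03 with TMM. Among the higher ones were Col4a3 (log2 5.37 ± 0.63, adjusted p = 3.4e-06), Col18a1 (2.70 ± 0.38, adjusted p = 2e-05), Col15a1 (3.93 ± 0.58, adjusted p = 3.7e-05) and Col7a1 (2.65 ± 0.44, adjusted p = 0.00011). The lower ones were Col5a1, Col5a3, Col11a2, Col16a1 and Col19a1. Col5a1 had 3 counts in intestine and 1209 in BSPC, a ratio of BSPC over intestine of 173.0 (95% exact interval 59.0 to 839.9, for counting error only), and Col5a3 had 0 counts in intestine and 169 in BSPC, at least 24.2-fold higher in BSPC. The call for Col22a1 rested on 31 counts in the library of mouse WT.1476, the one with germ cell markers, and 0 in the other intestine library. Without that library 7 genes were higher and 6 lower, with a median of 0.0, and the calls for Col3a1, Col4a4, Col6a1, Col6a3, Col6a4, Col9a3, Col19a1 and Col22a1 were lost.

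In BSPC, K36M against WT asked which collagen genes differ in blood progenitors after induction of the mutant histone. Of 15 collagen genes tested, 6 were higher, against 23.5% of all genes, and 2 were lower, against 24.6%. Both chains of type I collagen and Col18a1 had the largest rises, with smaller rises of Col7a1, Col9a3 and Col11a2. Col16a1 and Col17a1 fell. The median of the 15 genes was 0.28, against -0.02 over all genes, and the 29 other collagen genes, at 0 to 0.813 CPM, were too low to test.

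Col1a1, the alpha 1 chain of type I collagen, was at 8.63 and 6.49 CPM in K36M, 0.23 and 0.622 CPM in K9M and 0.235 and 0.552 CPM in WT. Its partner Col1a2 was at 17.9 and 30.9 CPM in K36M, 2.7 and 2.63 CPM in K9M and 2.77 and 4.97 CPM in WT. Both K36M libraries lay above all 4 others for each chain. The differences between K36M and WT were 4.24 ± 0.47 (adjusted p = 0.00036) for Col1a1 and 2.65 ± 0.36 (adjusted p = 0.0014) for Col1a2. Col3a1 had no more than 0.0496 CPM in any BSPC library. Col18a1 was at 20.7 and 16.0 CPM in K36M, 0.575 and 1.39 CPM in K9M and 0.938 and 1.66 CPM in WT, a difference between K36M and WT of 3.81 ± 0.39 (adjusted p = 0.00037). The other multiplexin, Col15a1, stayed at 0 to 0.23 CPM in all BSPC libraries.

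Col7a1 was at 6.69 and 5.71 CPM in K36M, 2.13 and 1.48 CPM in K9M and 1.78 and 2.25 CPM in WT (K36M against WT 1.62 ± 0.27, adjusted p = 0.0021). Col9a3, a chain of the FACIT type IX, was at 2.33 and 3.16 CPM in K36M, 0.69 and 0.861 CPM in K9M and 0.891 and 0.92 CPM in WT (1.59 ± 0.33, adjusted p = 0.0053). Col9a1 and Col9a2, its partner chains, were at 0.0496 CPM or below in every BSPC library. Col11a2, a chain of the fibrillar type XI, was at 24.0 and 24.1 CPM in K36M, 13.9 and 13.7 CPM in K9M and 10.6 and 14.3 CPM in WT (0.95 ± 0.16, adjusted p = 0.0021). Its partner Col11a1 reached 0.446 CPM at most. For these 3 genes the K36M libraries again lay above the other 4.

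Col16a1, a FACIT collagen, was at 1.78 and 2.83 CPM in K36M, 3.74 and 3.63 CPM in K9M and 5.58 and 7.17 CPM in WT (K36M against WT -1.47 ± 0.28, adjusted p = 0.0036). Col17a1, the transmembrane collagen of hemidesmosomes, was at 0.0496 and 0.333 CPM in K36M, 0.978 and 1.05 CPM in K9M and 1.03 and 1.29 CPM in WT (-2.61 ± 0.64, adjusted p = 0.011). The K36M libraries were the lowest of the 6 for both. Col5a1, the highest collagen gene per kb in WT BSPC, was at 25.1 and 23.1 CPM in K36M, 38.6 and 28.8 CPM in K9M and 19.5 and 36.5 CPM in WT, and these ranges overlapped (-0.22 ± 0.32, adjusted p = 0.616). Col5a3 was not called at -0.72 ± 0.34, nor were Col20a1 (-0.19 ± 0.31), Col27a1 (-0.39 ± 0.45) and the type IV genes Col4a1 (-0.78 ± 0.32), Col4a2 (0.29 ± 0.22) and Col4a5 (0.28 ± 0.71).

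Leaving out the K36M library of mouse 1310 ended the call for Col17a1, leaving out that of mouse 1312 ended the call for Col9a3, and fitting all 18 libraries at once ended the calls for Col11a2 and Col16a1. The reads of Col7a1 and Col9a3 may include those of overlapping genes (Mir711 and Tcfl5), since the strand setting of the counting is not given. Of the 12 fibroblast and stromal markers, Dcn had no count in any BSPC library and Lum, Dpt, Pdpn and Pdgfra stayed at or below 0.143 CPM; the list summed to 22.5 and 25.5 CPM in K36M and 41.0 and 34.5 CPM in WT. Most of this sum was Pdgfrb, at 19.8 and 22.7 CPM in K36M and 35.5 and 29.5 CPM in WT. Of the 4 markers of this list tested, 1 was higher and 3 were lower, against 23.5% and 24.6% of all genes. The higher one was Lepr, at 0.694 and 1.55 CPM in K36M and 0.141 and 0.092 CPM in WT. The osteoblast markers Dmp1 and Bglap2 had no count and Sp7 at most 0.0575 CPM; this list of 8 summed to 34.9 and 33.5 CPM in K36M and 59.4 and 48.9 CPM in WT, most of it Runx2. The 8 blood markers summed to 3658 and 3169 CPM in K36M and 12650 and 10440 CPM in WT, with 7 of 8 lower. The 6 macrophage markers summed to 168.3 and 193.0 CPM in K36M and 559.0 and 395.3 CPM in WT, with 4 lower, and 5 of 6 endothelial markers tested were lower. The part of such shifts in the collagen values was not tested.

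**Figure D2:**
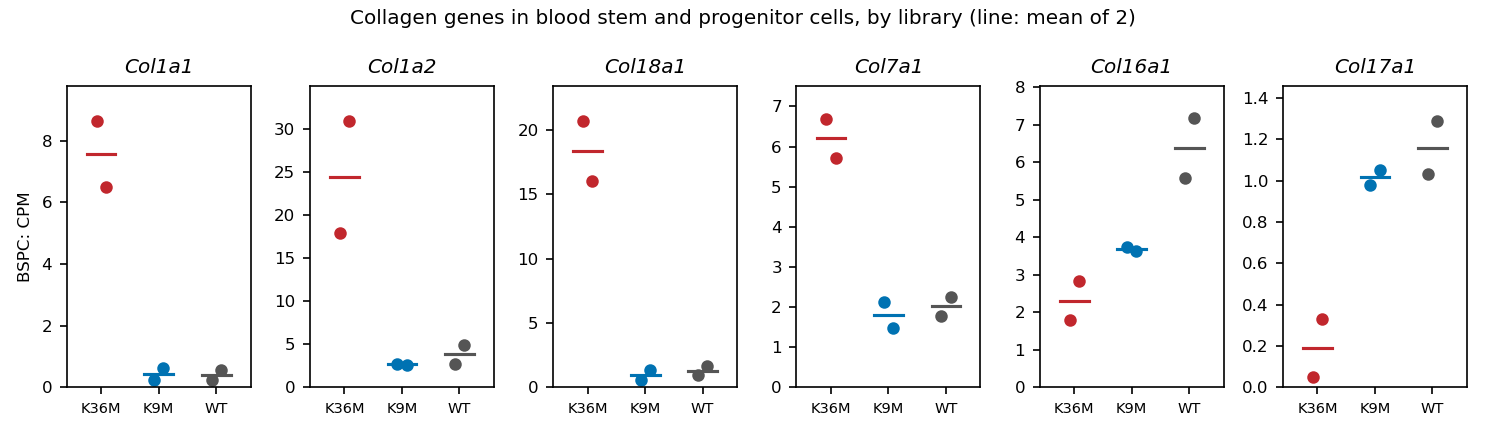
CPM of 6 collagen genes in BSPC (TMM within the tissue); each point is 1 library, the line is the mean of 2 and genotypes run from K36M over K9M to WT. Col1a1, Col1a2, Col18a1 and Col7a1 are higher in both K36M libraries than in all others, and Col16a1 and Col17a1 are lower.

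In intestine, 11 of 25 collagen genes tested were higher in K36M than in WT, against 11.7% of all genes, and 0 were lower, against 11.7%. All 4 type IV chains tested rose, as did the type VI chains Col6a1, Col6a2 and Col6a4, Col5a1, Col7a1, Col11a2 and the transmembrane Col23a1. The summed level of all 44 genes was 314.3 and 85.8 CPM in K36M, 26.7 and 27.1 CPM in K9M and 37.1 and 26.5 CPM in WT, so the 2 K36M libraries differed widely and mouse 1485 was the high one. The median over the 25 genes was 2.51, against -0.02 over all genes. Of the 25, 12 passed the filter on low counts through the K36M libraries alone. Among them were all 4 type VI chains tested and 7 of the 11 called genes. These 7 were Col4a2, Col4a5, Col5a1, Col6a1, Col6a2, Col6a4 and Col23a1. Neither the count of 11 nor this median can therefore be read as a share of all collagen genes. The genes that passed in this way had little room to come out lower, so the absence of lower calls says little about direction. On the same filtered genes none was lower at an unadjusted p under 0.05. DESeq2 and limma-voom called 13 and 7 of them higher and 0 lower.

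Among basement membrane collagens, Col4a1, a chain of every basement membrane, was at 76.5 and 7.16 CPM in K36M, 0.104 and 0.629 CPM in K9M and 1.21 and 0.203 CPM in WT. Col4a2, which pairs with it, was at 51.5 and 4.73 CPM in K36M, 0.207 and 0.0571 CPM in K9M and 0.728 and 0 CPM in WT. Both K36M libraries lay above all 4 others. The differences between K36M and WT were 5.77 ± 1.34 (adjusted p = 0.027) and 6.10 ± 1.45 (adjusted p = 0.029). Col4a3, a chain of specialised basement membranes, was at 16.4 and 12.1 CPM in K36M, 1.29 and 0.857 CPM in K9M and 1.21 and 1.15 CPM in WT. Its K36M libraries were close to each other and far above the rest (3.58 ± 0.36, adjusted p = 0.0027). Its partner Col4a4 was at 0.672 and 0.364 CPM in K36M, 0.0518 and 0.114 CPM in K9M and 0.242 and 0.0678 CPM in WT and was too low to test, so within this pair the level of 1 chain was far above that of the other.

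Col4a5 was at 2.46 and 1.33 CPM in K36M, 0 in both K9M libraries and 0.0485 and 0.0678 CPM in WT, with 55 counts in K36M against 2 in WT (ratio 32.6, 95% exact interval 8.59 to 275.5; 4.89 ± 0.82, adjusted p = 0.014). Col4a6 was at 0.373 and 0.425 CPM in K36M, 0.0518 and 0 CPM in K9M and 0 in WT, and was not tested. Col4a3 held its call under each alternative and each library left out. Col4a1, Col4a2 and Col4a5 lost theirs without K36M mouse 1485, and without either WT library, and Col4a1 and Col4a2 also with limma-voom. The exons of Col4a1 and Col4a2 overlap by 22 bp on opposite strands.

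Among beaded filament genes, Col6a1, a core chain of type VI, was at 13.7 and 2.73 CPM in K36M, 0.414 and 0.4 CPM in K9M and 0.533 and 0.136 CPM in WT (4.52 ± 0.96, adjusted p = 0.021). Col6a2, the second core chain, was at 10.2 and 2.43 CPM in K36M, 0.259 and 0.686 CPM in K9M and 0.194 and 0 CPM in WT (5.75 ± 1.19, adjusted p = 0.019). Col6a4, an alternative chain, was at 14.3 and 3.58 CPM in K36M, 0.57 and 0.743 CPM in K9M and 0.485 and 0.0678 CPM in WT (4.87 ± 0.96, adjusted p = 0.017). The K36M libraries lay above all others in each case. Col6a3, the third core chain, was at 3.73 and 0.91 CPM in K36M, 0.207 and 0.286 CPM in K9M and 0.533 and 0 CPM in WT and did not pass (2.97 ± 1.20, adjusted p = 0.12). Col6a5 was at 1.49 and 0.243 CPM in K36M and at 0.145 and 0.0678 CPM in WT, and Col6a6 at no more than 0.0607 CPM; neither was tested.

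Among the others, Col7a1 was at 37.4 and 15.5 CPM in K36M, 5.59 and 6.06 CPM in K9M and 6.45 and 6.99 CPM in WT (1.98 ± 0.41, adjusted p = 0.020). Col23a1 was at 3.29 and 3.28 CPM in K36M, 0.207 and 0.229 CPM in K9M and 0.194 and 0.0678 CPM in WT (4.50 ± 0.62, adjusted p = 0.0061). Col11a2 was at 9.93 and 5.04 CPM in K36M, 1.29 and 1.6 CPM in K9M and 1.99 and 1.56 CPM in WT (2.06 ± 0.45, adjusted p = 0.022). Each of these 3 was higher in both K36M libraries than in the other 4. Col5a1 was at 3.36 and 0.789 CPM in K36M, 0.207 and 0.114 CPM in K9M and 0.145 and 0 CPM in WT, or 58 counts in K36M against 3 in WT (ratio 22.9, 95% exact interval 7.45 to 114.2; 4.53 ± 1.16, adjusted p = 0.036). Its partner Col5a2 was at 1.72 and 0.121 CPM in K36M, 0.0518 and 0.114 CPM in K9M and 0.388 and 0 CPM in WT, and Col5a3 at 0.672 and 0.182 CPM in K36M and 0 in the other 4 libraries.

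Types I and III, the main collagens of interstitial fibrils, did not pass in intestine. Col1a1 was at 2.31 and 0.607 CPM in K36M, 0.363 and 0.514 CPM in K9M and 0.728 and 0 CPM in WT (1.88 ± 1.21, adjusted p = 0.304). Col1a2 was at 8.66 and 1.27 CPM in K36M, 0.0518 and 1.03 CPM in K9M and 1.65 and 0 CPM in WT (2.51 ± 1.60, adjusted p = 0.297). Col3a1 was at 7.92 and 0.971 CPM in K36M, 0.673 and 0.8 CPM in K9M and 0.922 and 0.136 CPM in WT (2.98 ± 1.14, adjusted p = 0.105). For Col1a1 and Col1a2 the lower K36M library fell within the range of the WT libraries. Col18a1 was at 10.1 and 9.89 CPM in K36M, 1.92 and 3.09 CPM in K9M and 3.83 and 5.22 CPM in WT, just short of the threshold (1.14 ± 0.34, adjusted p = 0.053). Col20a1, the highest collagen gene per kb in WT intestine, was at 11.4 and 3.76 CPM in K36M, 8.34 and 4.23 CPM in K9M and 6.79 and 5.29 CPM in WT (0.32 ± 0.57, adjusted p = 0.717). None of the 6 FACIT genes tested passed, with Col12a1 at 2.36 ± 0.82, Col14a1 at 2.18 ± 1.02, Col16a1 at 2.89 ± 1.37, Col9a3 at 0.03 ± 0.58 and Col22a1, the single tested gene below 0, at -0.58 ± 1.36. Col15a1 (0.98 ± 0.58), Col25a1 (0.97 ± 0.71) and Col27a1 (0.01 ± 0.48) did not pass either, and the 19 genes too low to test reached 2.02 CPM at most.

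Without K36M mouse 1485, 6 collagen genes were called in intestine, with 2987 of 15170 genes called in all, against 3323 of 14246 with every library. Without mouse WT.1476, the library with germ cell markers, 3 were called, with 1008 of 15014 in all. The count was 2 without mouse WT.1477, with 881 of 15639 in all, and 7 without K9M mouse 1519, with 1790 of 15352 in all. The 12 fibroblast and stromal markers summed to 184.3 and 124.9 CPM in K36M, 81.6 and 68.4 CPM in K9M and 53.3 and 51.8 CPM in WT, most of it Prrx1. In K9M this sum lay above WT through Prrx1, at 78.6 and 65.4 CPM in K9M and 48.3 and 48.4 CPM in WT. No other marker of the list exceeded 1.09 CPM in K9M or 1.56 CPM in WT. The collagen sum in K9M lay within the range of WT. Of the 6 markers tested for K36M against WT, 3 were higher and 1 was lower, against 11.7% of all genes in each direction. The lower one was Thy1, at 0 and 0.121 CPM in K36M and 1.16 and 1.56 CPM in WT. Pdgfra was at 16.7 and 4.67 CPM in K36M and 0.582 and 0.0678 CPM in WT, and Dcn at 5.9 and 1.21 CPM in K36M and 1.55 and 0.203 CPM in WT. Lum had no count in K36M. Smooth muscle and pericyte markers summed to 65.9 and 20.4 CPM in K36M and 13.6 and 7.8 CPM in WT, with 1 of 7 tested higher, Cspg4, at 30.4 and 10.7 CPM in K36M and 0.145 and 0.203 CPM in WT. Of 4 endothelial markers tested, 0 passed in either direction in edgeR, and 2 had an unadjusted p under 0.05. The 6 macrophage markers summed to 29.1 and 14.3 CPM in K36M and 7.18 and 5.76 CPM in WT, with Csf1r and Adgre1 higher. The 8 epithelial markers summed to 14090 and 12380 CPM in K36M and 17120 and 18520 CPM in WT, with Cdx2 lower and 7 not called. In the stromal, muscle and macrophage lists too, mouse 1485 gave the higher of the K36M values, and their part in the collagen differences was not tested.

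**Figure D3:**
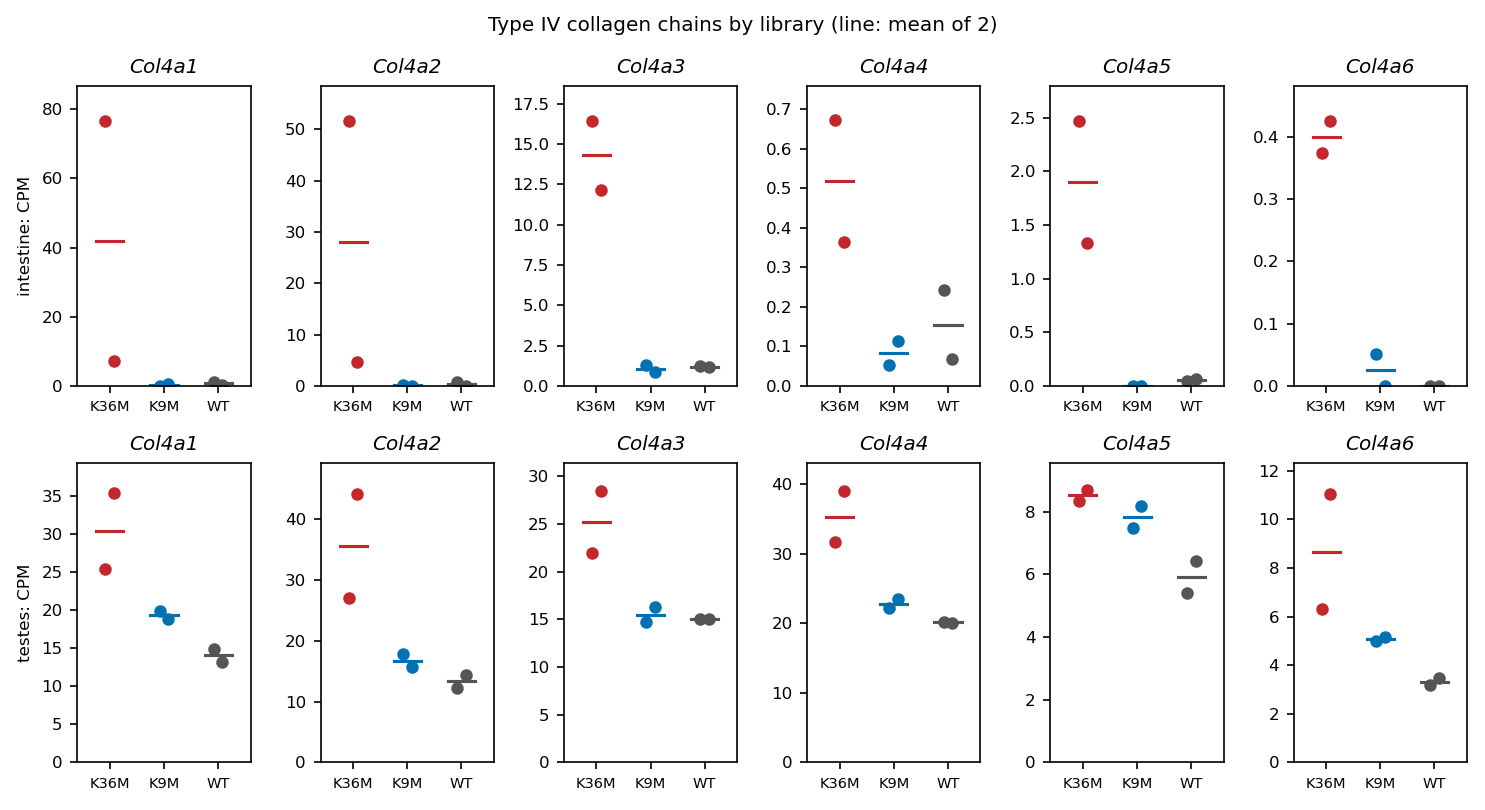
CPM of the 6 type IV collagen genes in intestine (upper row) and testes (lower row), TMM within each tissue; each point is 1 library, the line is the mean of 2 and genotypes run from K36M over K9M to WT. K36M libraries are the highest of each tissue for all 6 genes, with Col4a1 in intestine at 76.5 and 7.16 CPM in K36M, and for the 4 genes tested in both tissues the log2 differences from WT are 3.58 to 6.10 in intestine and 0.52 to 1.41 in testes.

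In testes, 42 of 44 collagen genes could be tested, and K36M against WT moved them both ways. Of the 42, 10 were higher, against 25.7% of all genes, and 11 were lower, against 23.8%, with a median of -0.05 against 0.02 over all genes. The shares, 23.8% and 26.2% of those tested, were near the background. By class, all 6 type IV chains were higher, while 3 of 11 fibrillar, 2 of 8 beaded filament and 4 of 8 FACIT genes were lower. The fibrillar and beaded filament counts were near the share of all genes. The fibrillar Col27a1 and the FACIT genes Col9a3 and Col20a1 were higher. Of the transmembrane genes Col23a1 was higher and Col25a1 lower, and the multiplexin Col18a1 was lower. The plot of K36M fold changes shows the type IV block on the right in testes and the type VI block mostly on the left.

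**Figure D4:**
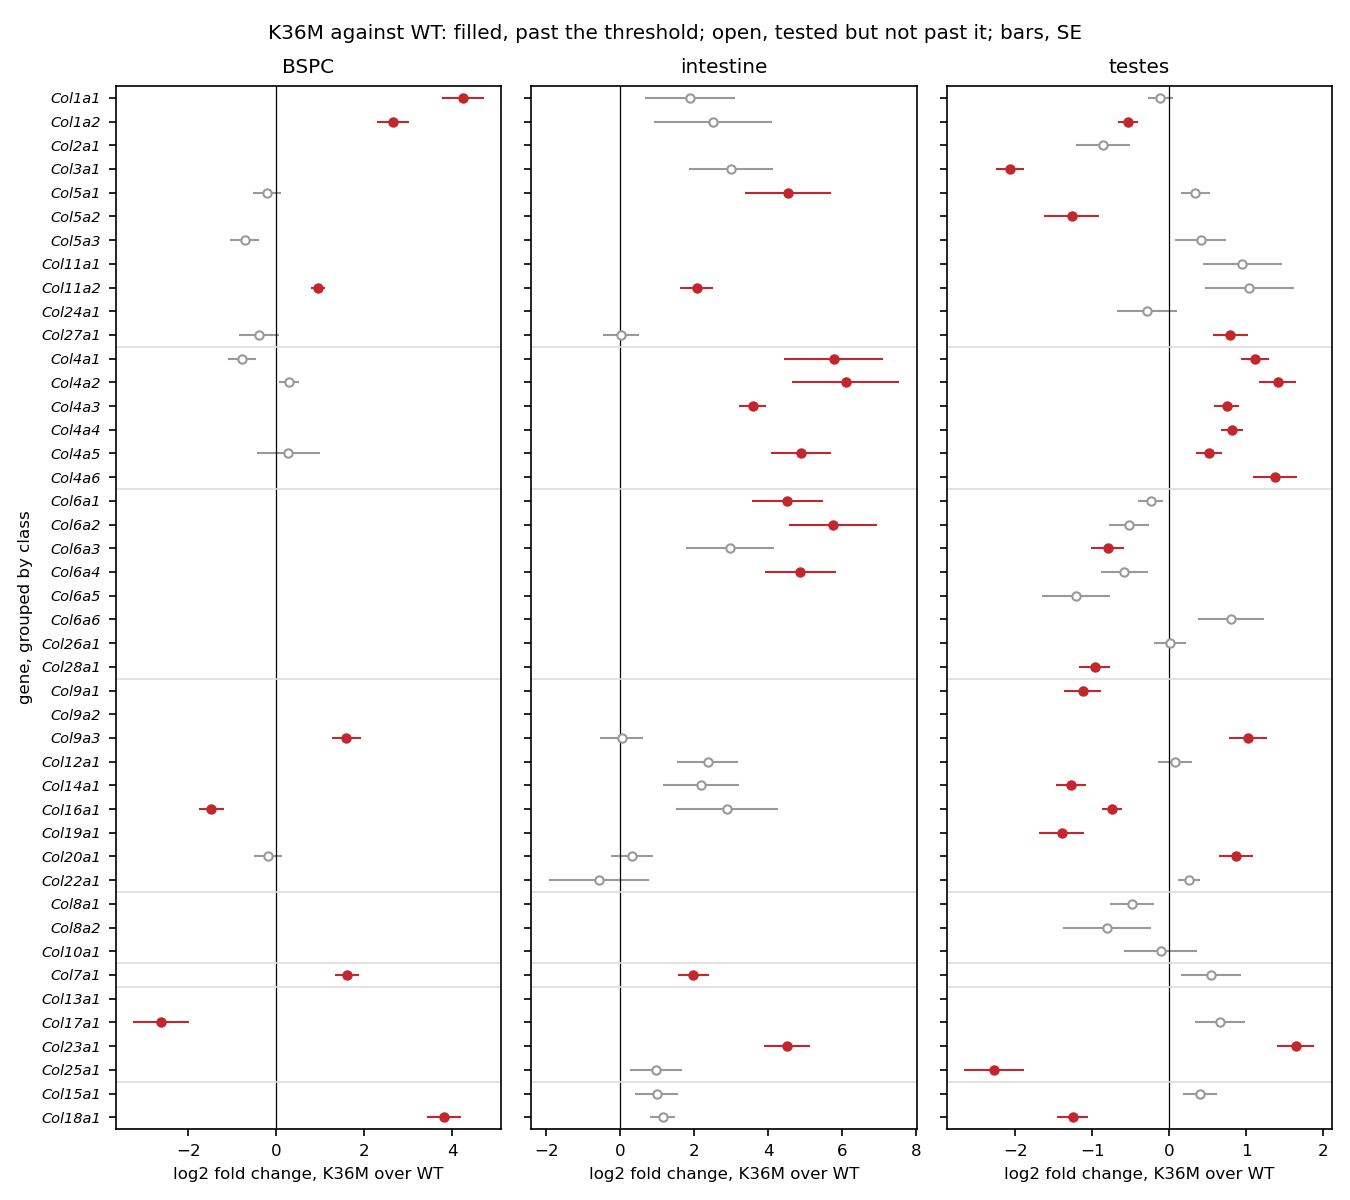
Log2 fold change of K36M over WT (horizontal axis) for each collagen gene tested (rows, grouped by class) in BSPC, intestine and testes; filled red points passed the adjusted threshold, open grey points did not, and bars are SE. In testes all 6 type IV genes are filled and above 0, and the horizontal scale differs between tissues.

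All type IV chains were higher in both K36M mice than in either WT mouse. Col4a1 was at 25.4 and 35.3 CPM in K36M, 19.9 and 18.9 CPM in K9M and 14.9 and 13.2 CPM in WT (K36M against WT 1.11 ± 0.18, adjusted p = 0.0052). Col4a2 was at 27.0 and 44.1 CPM in K36M, 17.8 and 15.7 CPM in K9M and 12.3 and 14.4 CPM in WT (1.41 ± 0.24, adjusted p = 0.0057). For this pair, as for Col4a4, Col4a5 and Col4a6, the K36M libraries were the highest of the 6 and the K9M libraries lay above those of WT. Col4a3 was at 21.9 and 28.4 CPM in K36M, 14.7 and 16.2 CPM in K9M and 15 CPM in both WT libraries (0.75 ± 0.16, adjusted p = 0.011). Col4a4 was at 31.7 and 39.0 CPM in K36M, 22.2 and 23.5 CPM in K9M and 20.2 and 20.1 CPM in WT (0.81 ± 0.14, adjusted p = 0.0060). In testes, unlike in intestine, both chains of this pair were well above the filter. Col4a5 was at 8.34 and 8.69 CPM in K36M, 7.46 and 8.19 CPM in K9M and 5.4 and 6.43 CPM in WT (0.52 ± 0.17, adjusted p = 0.040). Col4a6, its X-linked partner, was at 6.3 and 11.03 CPM in K36M, 4.97 and 5.16 CPM in K9M and 3.18 and 3.47 CPM in WT (1.38 ± 0.29, adjusted p = 0.0098).

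The other rises in testes were of Col23a1, Col9a3, Col20a1 and Col27a1. Col23a1 was at 14.9 and 22.8 CPM in K36M, 6.27 and 5.61 CPM in K9M and 6.78 and 5.35 CPM in WT (1.64 ± 0.24, adjusted p = 0.0041). Col20a1 was at 74.7 and 120.4 CPM in K36M, 53.7 and 52.6 CPM in K9M and 53.3 and 53.4 CPM in WT (0.87 ± 0.22, adjusted p = 0.017). The 4 libraries of K9M and WT were nearly level for it and both K36M libraries stood above. Col9a3 was at 16.6 and 28.3 CPM in K36M, 10.5 and 11.8 CPM in K9M and 11.1 and 10.98 CPM in WT (1.02 ± 0.25, adjusted p = 0.016), and Col27a1, a fibrillar collagen, at 16.7 and 25.1 CPM in K36M, 11.1 and 14.2 CPM in K9M and 11.7 and 12.4 CPM in WT (0.79 ± 0.23, adjusted p = 0.027). In each of these genes mouse 1553 gave the higher K36M value. The exons of Col9a3 overlap those of Tcfl5, and the exons of Col20a1 those of BX649560.1, so their reads may be shared. Without the genes whose exons overlap another gene's, a choice made after seeing the data, 6 of 33 were higher in testes and 11 lower.

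Among fibrillar collagens, Col3a1 had the largest fall, to 2.46 and 2.83 CPM in K36M, with 12.1 and 13.3 CPM in K9M and 11.9 and 10.4 CPM in WT (-2.07 ± 0.18, adjusted p = 0.0024). Col5a2 was at 0.84 and 0.986 CPM in K36M, 1.05 and 1.81 CPM in K9M and 2.4 and 2.02 CPM in WT (-1.26 ± 0.36, adjusted p = 0.026). Col1a2 was at 13.1 and 14.1 CPM in K36M, 23.1 and 25.1 CPM in K9M and 20.1 and 19.4 CPM in WT (-0.53 ± 0.13, adjusted p = 0.015). The K36M libraries were the lowest of the 6 in all 3. Col1a1, the partner of Col1a2, was at 6.06 and 6.47 CPM in K36M, 7.46 and 8.69 CPM in K9M and 6.84 and 6.71 CPM in WT and did not pass (-0.11 ± 0.17, adjusted p = 0.597). Col5a1 (0.34 ± 0.19), Col5a3 (0.41 ± 0.33), Col11a1 (0.95 ± 0.51) and Col11a2 (1.04 ± 0.58) did not pass either. Col2a1 was at 31.4 and 13.5 CPM in K36M, 32.7 and 30.2 CPM in K9M and 43.9 and 37.8 CPM in WT (-0.86 ± 0.35, adjusted p = 0.084).

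Among FACIT genes, Col14a1 was at 7.86 and 6.1 CPM in K36M, 18.5 and 19.2 CPM in K9M and 19.2 and 14.7 CPM in WT (-1.28 ± 0.20, adjusted p = 0.0043). Col16a1 was at 42.5 and 47.8 CPM in K36M, 75.8 and 84.3 CPM in K9M and 74.8 and 76.9 CPM in WT (-0.75 ± 0.13, adjusted p = 0.0057). Col19a1, a collagen of muscle and neuronal basement membrane zones, was at 1.68 and 1.05 CPM in K36M, 4.64 and 4.03 CPM in K9M and 3.9 and 3.33 CPM in WT (-1.40 ± 0.29, adjusted p = 0.0096). The K36M libraries were the lowest of the 6 for each of these 3 genes. Col9a1 was at 1.32 and 1.54 CPM in K36M, 3.54 and 3.57 CPM in K9M and 2.88 and 3.33 CPM in WT (-1.12 ± 0.24, adjusted p = 0.011), opposite in direction to its partner chain Col9a3, while Col9a2 stayed at 0.141 CPM or below. Col22a1, the highest collagen gene per kb in WT testes, was at 144.5 and 174.7 CPM in K36M, 138.3 and 144.0 CPM in K9M and 135.6 and 131.7 CPM in WT and did not pass (0.26 ± 0.14, adjusted p = 0.164).

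The remaining falls were of Col25a1, Col18a1, Col28a1 and Col6a3. Col25a1, a transmembrane collagen, was at 1.2 and 0.493 CPM in K36M, 5.02 and 3.8 CPM in K9M and 4.44 and 3.85 CPM in WT (-2.27 ± 0.39, adjusted p = 0.0056). Col18a1 was at 6.12 and 8.2 CPM in K36M, 16.8 and 18.4 CPM in K9M and 15.1 and 18.9 CPM in WT (-1.25 ± 0.20, adjusted p = 0.0046). Its multiplexin partner in class, Col15a1, was at 28.4 and 45.3 CPM in K36M, 27.9 and 30.9 CPM in K9M and 28.6 and 27.2 CPM in WT (0.40 ± 0.22, adjusted p = 0.163). Col28a1, related to the beaded filament genes, was at 3.9 and 4.19 CPM in K36M, 7.61 and 9.82 CPM in K9M and 8.46 and 7.36 CPM in WT (-0.96 ± 0.20, adjusted p = 0.010), and Col6a3 at 3.0 and 4.01 CPM in K36M, 6.46 and 7.33 CPM in K9M and 5.7 and 6.43 CPM in WT (-0.79 ± 0.21, adjusted p = 0.022). The other type VI chains did not pass, with Col6a1 at -0.24 ± 0.16, Col6a2 at -0.53 ± 0.26, Col6a4 at -0.58 ± 0.30, Col6a5 at -1.21 ± 0.44 and Col6a6 at 0.80 ± 0.43. Neither did Col7a1 (0.55 ± 0.39), Col17a1 (0.66 ± 0.32), Col12a1 (0.07 ± 0.22), Col24a1 (-0.29 ± 0.39), Col26a1 (0.01 ± 0.21) or the 3 short chain genes Col8a1 (-0.48 ± 0.29), Col8a2 (-0.81 ± 0.57) and Col10a1 (-0.11 ± 0.48). Col9a2 and Col13a1 were too low to test, at 0.574 CPM or below.

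Leaving out mouse WT.1476 or mouse WT.1477 left 6 called collagen genes in testes, with 2310 of 20026 and 2498 of 19626 genes called in all, against 9476 of 19160 with every library, and a fit of all 18 libraries gave 9. Calls for Col3a1, Col18a1, Col23a1 and Col25a1 held under every alternative and every library left out. In the fit of all 18 libraries 3 collagen genes were higher, Col23a1 among them, so most type IV calls were lost. Most were also lost when either WT mouse was left out. Markers of Sertoli and Leydig cells moved strongly in the K36M testes libraries. Of all genes, 25.7% were higher and 23.8% lower in K36M than in WT. The 7 Sertoli cell markers, all higher, summed to 540.8 and 728.7 CPM in K36M and 234.2 and 244.5 CPM in WT. The 7 Leydig cell markers, 6 of them lower, summed to 71.2 and 50.5 CPM in K36M and 478.6 and 380.4 CPM in WT. Smooth muscle and pericyte markers (6 of 8 higher) summed to 545.7 and 680.1 CPM in K36M and 330.5 and 334.6 CPM in WT. For fibroblast and stromal markers the sums were 183.1 and 175.7 CPM in K36M and 79.8 and 83.2 CPM in WT. Of these, 3 of 12 were higher, near the share of all genes. Dcn made up most of this sum in K36M, at 116.3 and 108.4 CPM, and was at 30.4 and 29.6 CPM in WT. Of 8 endothelial markers 4 were higher, and of 6 macrophage markers 3 were higher and 1 was lower. Of 8 germ cell markers, the 4 spermatid genes Prm1, Prm2, Tnp1 and Tnp2 were higher and Ddx4, Dazl and Sycp3 were lower. Their part in the collagen differences was not tested, and the classes and marker lists are set side by side in the plot of sums.

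**Figure D5:**
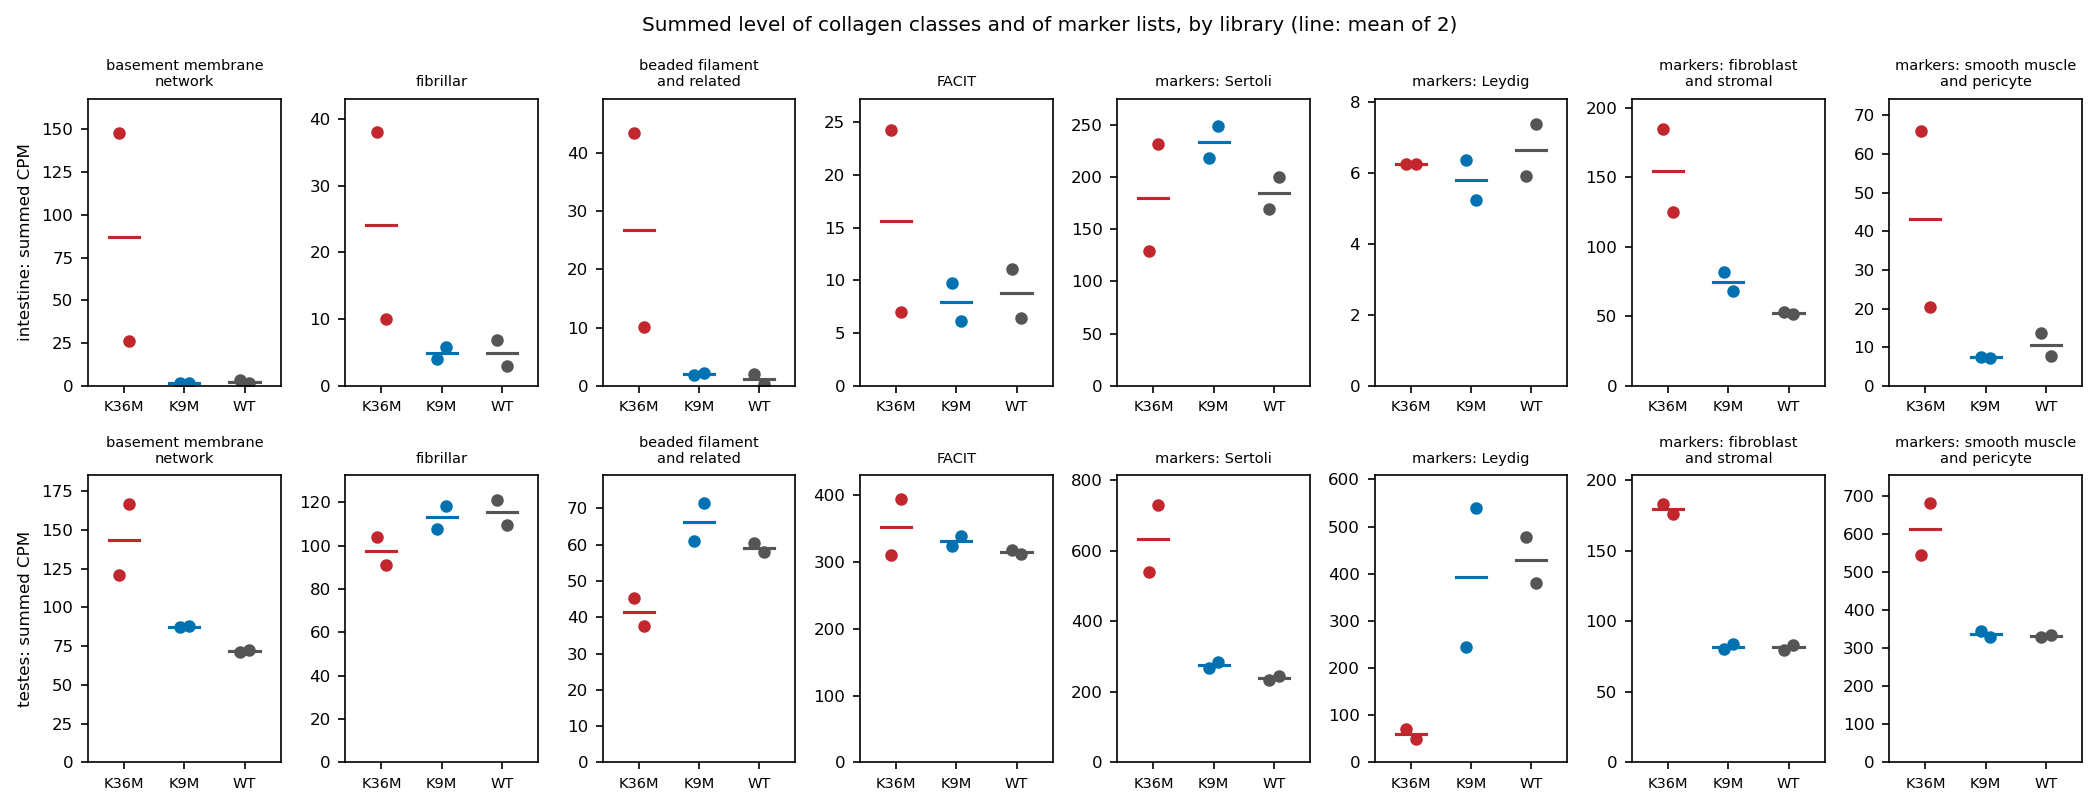
Summed CPM of 4 collagen classes and 4 marker lists in intestine (upper row) and testes (lower row), TMM within each tissue; each point is 1 library, the line is the mean of 2 and genotypes run from K36M over K9M to WT. In testes the basement membrane and Sertoli sums are highest in both K36M libraries and the Leydig sum lowest, and in intestine the K36M library of mouse 1485 leads the collagen sums.

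Across tissues, each K36M comparison has its own WT libraries. Col4a1, Col4a2, Col4a3, Col4a5 and Col23a1 rose in both intestine and testes, Col7a1 and Col11a2 rose in both BSPC and intestine, and Col9a3 rose in both BSPC and testes. Col16a1 fell in both BSPC and testes. Col18a1 and Col1a2 rose in BSPC and fell in testes, a contrast that was not tested. The K36M effect in intestine was set against that in testes with an interaction term, fitted to the 12 libraries of these tissues. Of 43 genes tested, 18 had a higher value in intestine than in testes, against 10.1% of all genes, and 0 a lower one, against 12.4%; DESeq2 and limma-voom called 19 each, all higher, and no gene was lower at an unadjusted p under 0.05. The median of the 43 was 3.12, against -0.02 over all genes, and many of these genes had few or no counts in WT intestine, so their fitted values depend on the prior count. Such genes had little room to fall in intestine, so the absence of lower values says little about direction.

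The clearest differences in that test were of Col4a3 (2.78 ± 0.38, adjusted p = 0.0012), Col4a5 (4.35 ± 0.71, adjusted p = 0.0033) and Col18a1 (2.35 ± 0.41, adjusted p = 0.0037). Type VI followed, with Col6a4 at 5.38 ± 0.98 (adjusted p = 0.0049), Col6a2 at 6.21 ± 1.16 (adjusted p = 0.0049) and Col6a1 at 4.67 ± 0.97 (adjusted p = 0.0082). Col3a1, which fell in testes, had a difference of 4.94 ± 1.16 (adjusted p = 0.015). Col4a2, the partner of Col4a1, just missed the threshold at an adjusted p of 0.0501 (4.60 ± 1.47). With the mouse as a block, 10 of the 18 were called, and Col3a1, Col4a1, Col5a3, Col6a3, Col8a1, Col12a1, Col13a1 and Col14a1 were not. Without K36M intestine of mouse 1485, 7 were called, with 3830 of 21023 genes in all, and without testes of mouse WT.1476, 8, with 2205 of 21028 in all, against 4552 of 20253 with every library.

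No collagen gene passed for K9M against WT in any tissue. In BSPC 0 of 15 passed in edgeR, against 1.01% of all genes, and 2 had an unadjusted p under 0.05, Col16a1 at -0.79 and Col20a1 at -1.15. In intestine 0 of 25 passed, against 0.211% of all genes, with Col18a1 alone at an unadjusted p under 0.05 (-0.85). In testes 0 of 42 passed, against 0.0678%, and 3 had an unadjusted p under 0.05, which were Col4a1 at 0.46, Col4a5 at 0.40 and Col6a6 at 0.99. The interaction for K9M gave 0 of 43, against 0.123%, with 1 at an unadjusted p under 0.05. DESeq2 and limma-voom called 0 in each of these comparisons. With so few genes called at all, a count of 0 is near the background. The 6 libraries of a tissue share 1 estimate of the spread, so these counts depend on the K36M libraries too. In testes the K36M replicates differed most (chi-square per degree of freedom 43, against 4.54 in K9M and 2.26 in WT). Without K36M mouse 1485 or mouse 1553 in testes, 2 collagen genes were called for K9M, with 243 and 247 genes called in all.

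K36M was also set against K9M, which compares the mutants with each other. In BSPC 7 of 15 were higher, against 26.0% of all genes, and 2 were lower, against 27.8%. The higher ones were Col1a1 (4.09 ± 0.47), Col18a1 (4.19 ± 0.41), Col1a2 (3.19 ± 0.37), Col7a1, Col9a3, Col11a2 and Col20a1, and the lower ones Col17a1 and Col27a1. In intestine 12 of 25 were higher, against 12.2%, and 0 lower, against 12.9%, with 0 lower also at an unadjusted p under 0.05 and in DESeq2 and limma-voom. Here too 12 of the 25 had passed the filter on low counts through the K36M libraries alone, so nothing about collagen genes as a set can be read from this count. Col12a1 (3.64 ± 0.91) and Col18a1 (2.00 ± 0.35) passed in this comparison, and Col5a1 did not (adjusted p = 0.0502). In testes 8 of 42 were higher, against 25.4%, and 12 were lower, against 23.9%. Col6a1 (-0.59 ± 0.16) and Col6a2 (-0.94 ± 0.25) were among the lower ones, and Col4a5 and Col4a6 did not pass. The count in intestine was 1 without either K9M library, where 640 and 620 genes were called in all, against 3570 with every library, and 7 without K36M mouse 1485, with 3458 in all. In testes it was 0 without K9M mouse 1516, where 0 of 19661 genes were called in all, and 6 without mouse 1519, where 2065 of 19632 were, against 9430 of 19160 with every library.

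Genes that make and handle collagen were described from 3 further lists. Of the biosynthesis list (prolyl and lysyl hydroxylases, chaperones, trimming and cross-linking enzymes), 2 of 23 tested were higher in K36M than in WT in BSPC and 9 were lower, against 23.5% and 24.6% of all genes. P4ha1, a prolyl 4-hydroxylase subunit, averaged 28.8 ± 4.76 CPM in K36M and 53.9 ± 5.75 CPM in WT (SD, n = 2 each; edgeR -0.90 ± 0.13, adjusted p = 0.00097). P3h1, a prolyl 3-hydroxylase, and Ppib, the isomerase in its complex, fell with it (-0.80 ± 0.13 and -0.38 ± 0.06), and P4ha3 and Adamts3 rose. In testes the same list had 16 of 32 higher and 3 lower, against 25.7% and 23.8% of all genes, and there P4ha1 (0.91 ± 0.13), P3h1 (0.90 ± 0.13) and Ppib (1.16 ± 0.13) rose, while Loxl1, a cross-linking oxidase, P3h2 and P4ha2 fell. Whether these genes differ between BSPC and testes was not tested. In intestine 3 of 17 were higher and 0 lower, against 11.7% of all genes in each direction, the 3 being Pcolce (3.09 ± 0.48), an enhancer of procollagen trimming, P3h4 and Crtap.

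Of the other matrix genes, 5 of 16 were higher and 3 lower in K36M BSPC, 6 of 19 higher and 1 lower in intestine, and 11 of 32 higher and 4 lower in testes, or 31.2% and 18.8%, 31.6% and 5.26%, and 34.4% and 12.5% of those tested, beside the shares of all genes just given. No test of the list as a set was made. Lama5, a laminin chain of basement membranes, rose in BSPC (30.4 ± 5.14 CPM in K36M and 2.16 ± 0.462 CPM in WT, SD, n = 2 each; edgeR 3.81 ± 0.26, adjusted p = 5.3e-05) and in intestine (149.6 ± 94.4 CPM in K36M and 5.01 ± 2.9 CPM in WT; 4.92 ± 0.62, adjusted p = 0.0048). Nid1, which links laminin to type IV collagen, rose in intestine (5.65 ± 0.89) with Thbs1, and Fbln1 fell there (-1.31 ± 0.25). Agrn (2.20 ± 0.10) and Fbln1 (1.39 ± 0.33) rose in BSPC, where Bgn, Postn and Fn1 fell. In testes Dcn (1.91 ± 0.12), Bgn (1.27 ± 0.14) and Lama1 (1.35 ± 0.18) rose and Fbn2, Postn and Tnc fell.

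Of collagen receptors and proteases, 2 of 14 were higher and 4 lower in K36M BSPC, against 23.5% and 24.6% of all genes. In intestine 3 of 13 were higher and 3 lower, against 11.7% in each direction. In testes 7 of 17 were higher and 1 lower, against 25.7% and 23.8%. The BSPC shares, 14.3% and 28.6%, were near those of all genes or below them. Mmp14, a collagenase of the cell surface, rose in BSPC (2.00 ± 0.33, adjusted p = 0.0068) and in intestine (1.87 ± 0.27, adjusted p = 0.0065). Itga1, the alpha chain of a collagen-binding integrin, fell in BSPC (-2.61 ± 0.26) and in intestine (-1.28 ± 0.22), while Itgb1, the beta chain, rose in BSPC (0.77 ± 0.08) and testes (1.33 ± 0.13). Lair1 and Mmp8 fell in BSPC. Ddr1, a collagen receptor kinase, fell in intestine (-1.02 ± 0.18) and rose in testes (1.55 ± 0.18). Timp3, a matrix-bound protease inhibitor, rose in intestine (4.39 ± 0.77) and testes (1.26 ± 0.12), with Mmp10 higher and Itga10 lower in intestine and Itga2 lower in testes. For K9M against WT, 3 genes of the 3 lists were called, all in BSPC, with the same genes tested as for K36M there. Of all genes, 1.01% were called for K9M in BSPC, 0.211% in intestine and 0.0678% in testes. Pcolce (1.41 ± 0.24, adjusted p = 0.041) and Lama1 (4.78 ± 0.57, adjusted p = 0.011) rose and Fn1 fell (-3.73 ± 0.43, adjusted p = 0.022).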

How the data were processed

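The authors deposited raw read counts per gene for 18 libraries; the submitters' processing notes name STAR, HTSeq and the build mm9, and tool versions, annotation and strand setting are not given in the sources used here. Besides 37620 gene IDs, every file holds 5 HTSeq summary entries, which stayed out of library sizes and tests. Reads in no feature were 9.89% to 26.0% of all entries. Symbols and exon lengths came from GENCODE M21 and promoters from RefSeq, both on GRCm38, another build than that of the counts. Counts were tested with edgeR 4.0.16 in R 4.3.3 (TMM, filterByExpr, robust quasi-likelihood, Benjamini-Hochberg at 0.05): 6 libraries of a tissue for mutant comparisons, the 12 of intestine and testes for interactions and their WT comparison, and all 18 for WT comparisons with BSPC. The code was tested on simulated counts. DESeq2 1.42.0, limma-voom 3.58.1, other scalings, no filter, each library left out, 1 fit of all libraries and the mouse as a block were alternatives. Intestine and testes are paired by the mice in the labels, and deviations of the mice correlated at -0.0313 in K36M, 0.0786 in K9M and 0.0314 in WT. Replicates differed beyond counting noise (chi-square per degree of freedom 2.26 to 59.1), and intervals and floors of 3 counts cover counting error only.

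The members, gene lists and tests were chosen with earlier results of these data known. Values are given for collagen genes past the threshold against WT, for the 4 highest per kb in each WT tissue and for their partner chains, with low levels as ranges, and for up to 3 genes a list and direction with the smallest adjusted p. In all, 9 collagen genes have exons that overlap another gene's, 2 on the same strand and 7 on the opposite one, and their reads may be shared.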

Additional observations from a re-analysis of the deposited data

Results flagged for a closer look

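For 18 collagen genes the effect of K36M differed between intestine and testes in the interaction test, each with the larger value in intestine (edgeR, Benjamini-Hochberg; adjusted p 0.0012 to 0.048; intestine effect minus testes effect on the log2 scale). Among type IV genes the differences were 2.78 for Col4a3, 4.35 for Col4a5 and 4.59 for Col4a1. Among type VI genes they were 3.64 for Col6a3, 4.01 for Col6a5, 4.67 for Col6a1, 5.38 for Col6a4 and 6.21 for Col6a2. Among fibrillar genes they were 4.12 for Col5a1, 4.94 for Col3a1 and 5.86 for Col5a3. The others were Col12a1 at 2.20, Col18a1 at 2.35, Col23a1 at 2.80, Col25a1 at 3.16, Col14a1 at 3.36, Col8a1 at 3.70 and Col13a1 at 6.05. Col5a3 and Col13a1 had no count in WT intestine, so their fitted values depend on the prior count. Genes near 0 CPM in WT intestine had little room for a lower value. The calls for Col4a3, Col4a5, Col6a1, Col6a2, Col6a4, Col18a1 and Col23a1 held under every alternative and with each library left out.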

How the results depend on the processing

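The number of collagen genes called for K36M against WT in intestine, 11, was 7 with limma-voom, 20 with all 18 libraries in 1 fit, 23 without a filter, 7 without genes whose exons overlap another gene (chosen after seeing the data), and 2 to 13 with a library left out. For K36M against K9M in intestine, 12, it was 7, 23 and 23 under the first 3 of these, and 1 to 17. For K36M against WT and against K9M in testes, 21 and 20, it was 9 each with all libraries in 1 fit, and 6 to 29 and 0 to 29 with a library left out. The replicate block for the mouse gave 10 in place of 18 for the K36M interaction, which ran from 7 to 23 with a library left out, and moved no other count by over 1.5 times. Leaving out a library gave 0 to 2 for K9M in testes and 0 to 1 for the K9M interaction. Counts in BSPC ran from 7 to 10 for K36M against WT and 6 to 10 against K9M. The WT tissue counts ran from 13 to 21 for intestine against BSPC, 38 to 42 for testes against BSPC and 37 to 42 for intestine against testes. With a library left out, intestine against BSPC ran from -2.72 to 6.07 for Col6a3, with the reversed value without mouse WT.1476. Over single genes, 271 of the leave-one-out values and 77 of the others lost their call, 2032 and 1073 kept it, and 1 reversed. Library size alone moved the median of all genes to 0.22 in the K36M interaction and to -0.12 for K36M against WT in testes. Where this left a group with a single library, that library was taken to vary as the remaining groups do. Depth limits the genes with few counts, mainly in WT intestine and BSPC.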
